A study of Homo sapiens with 22 samples.

Results

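Differentiated LUHMES cells that overexpressed alpha-synuclein and had been given 6-hydroxydopamine (6-OHDA) were compared with untreated wild-type LUHMES cells, gene by gene. LUHMES is a conditionally immortalised line from human embryonic midbrain that is differentiated into neurons, and 6-OHDA is an oxidising dopamine analogue. The comparison used every library with these labels, 4 of the combined model and 4 controls, which is 8 of the 22 libraries of the series. Its question is how far the neuronal transcriptome moves when both stressors used to model Parkinson disease in vitro are present together. The libraries were made from polyadenylated RNA. Wild-type cells given 6-OHDA (4 libraries) and untreated alpha-synuclein cells (4 libraries) served as references for the part of each stressor. The sources used here do not state the dose and duration of 6-OHDA, the promoter driving alpha-synuclein, or whether the overexpressing cells are 1 clone or a pool. Nothing in the labels says whether the replicates of a group were grown separately, so the p-values below reflect spread among these libraries only, and that spread may be technical.

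Alpha-synuclein is a presynaptic protein whose aggregates make up much of the Lewy body. 6-OHDA enters catecholamine neurons through their transporters and oxidises rapidly, yielding peroxide and quinones. Cells meet such damage with several transcriptional programmes. NRF2 drives antioxidant enzymes, ATF4 serves the integrated stress response to amino acid or protein folding stress, XBP1 and ATF6 serve the unfolded protein response of the endoplasmic reticulum, and p53 drives growth arrest and apoptosis genes.

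Total counts ranged from 6106908 to 10609641 in the untreated wild-type libraries and from 2520764 to 18607226 in the combined model. A total of 16601 genes had enough counts to be tested. The control libraries were read on lane 1 of the flow cell, as were both reference groups, and the combined-model libraries on lane 2, so lane and group cannot be told apart in any comparison here. Replicate 4 of the combined model, the deepest library, stood apart from the other 3. Along principal component 1 (52.05% of the variance) the controls lay between -63.9 and -43.7, replicates 1 to 3 of the combined model between 60.4 and 66.1, and replicate 4 at 20.2. Over the 1940 genes at least 2-fold higher without it, replicate 4 showed a median of 0.578 of the log2 change seen in the other 3, and over the 1194 genes at least 2-fold lower, 0.612. Its direction matched in 1868 and 1162 of these genes. The genes were chosen by a fit that left replicate 4 out, which by itself lowers its share, by an amount not estimated.

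**Figure D1:**
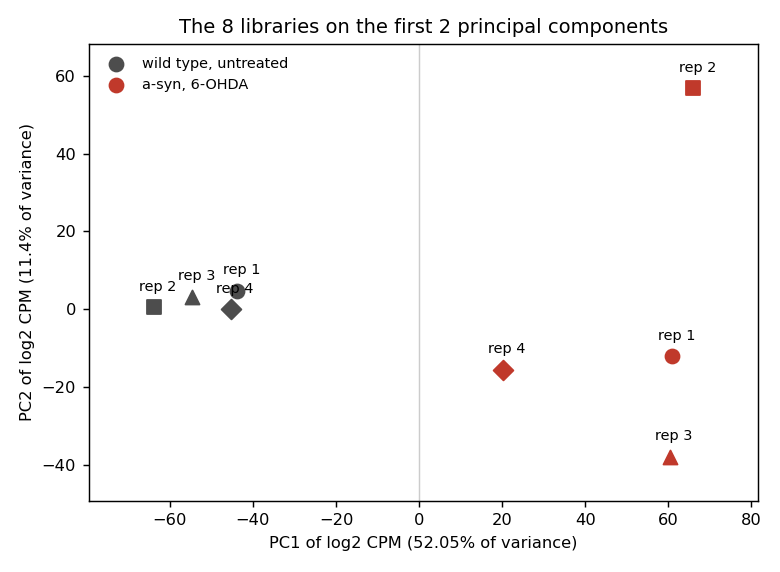
First against second principal component of log2 CPM (library-scaled counts) in the 8 libraries, 1 point per library, with the share of variance on each axis. The 4 control libraries lie on the negative side of the first component and the 4 combined-model libraries on the positive side, with replicate 4 nearest to the controls at 20.2.

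The transcriptome differed widely. In edgeR's quasi-likelihood test, 7448 genes (44.9% of those tested) had a Benjamini-Hochberg adjusted p under 0.05. Of these, 3613 (21.8%) were higher and 3835 (23.1%) lower in the combined model, and 2373 (14.3%) differed at least 2-fold, 1476 (8.89%) upward and 897 (5.40%) downward. In 6101 genes (36.8%) the 4 and 4 libraries did not overlap, 2900 of them higher (17.5%) and 3201 lower (19.3%). The higher calls were 48.5% of all calls. Scaling libraries by their total counts alone moved the median log2 change of all genes from 0.06 to 0.32. Then 8530 genes passed, 6250 higher (73.3% of these calls) and 2280 lower. List counts given below under that scaling are to be read against these. Other list counts of this comparison are to be read against 21.8% higher and 23.1% lower over all genes. Without replicate 4, 8146 genes passed, and 7068 of them were among the calls made with it, all in the same direction. By genomic span, of protein-coding genes spanning under 10 kb, 22.4% were higher and 22.0% lower, and of those spanning over 300 kb, 17.3% were higher and 42.2% lower. Of 1861 pseudogenes, 26.8% were higher and 4.78% lower. They also took a larger share of counts, 1.86% ± 0.13 in the combined model against 1.41% ± 0.13 in the controls (SD, n = 4 each), with the libraries not overlapping (exact permutation test, two-sided, p = 0.0286, the smallest that 4 against 4 can give; 0.0571 without control replicate 2 or without combined-model replicate 1).

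The labelled cell type was checked against marker lists. All 12 general neuronal markers averaged above 1 CPM (counts relative to the TMM-scaled library size) in both groups, and their summed level ranged from 11860 to 13030 CPM in the controls and from 5539 to 7515 CPM in the combined model. Summed levels of 12 dopaminergic markers ranged from 430.5 to 484.3 CPM and from 112.3 to 143.2 CPM, most of it TH, while LMX1A, FOXA2, PITX3 and ALDH1A1 were at 0 in every control library. Sums for 8 astrocyte markers overlapped between the groups, at 434.7 to 527 CPM and 521.8 to 542.7 CPM. The 8 microglial markers summed to 4.38 to 7.35 CPM in the controls and 7.95 to 16.2 CPM in the combined model, and the 6 epithelial markers to 154.6 to 179.5 CPM and 342.4 to 410.2 CPM, most of it KRT19. Sums of 8 markers of proliferating cells were 87.2 to 118.4 CPM and 25.8 to 67.0 CPM. In bulk RNA, fewer cells of a type and less RNA per cell cannot be told apart, and the part of these shifts in the gene results below was not tested.

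The antioxidant programme was higher in the combined model. Of 18 tested NRF2 targets, 14 were higher and 0 lower, with a median log2 change of 1.64 against 0.06 over all genes tested, or 14 higher and 1 lower without replicate 4. The largest change was in HMOX1, haem oxygenase 1, which splits haem into biliverdin, iron and carbon monoxide (chromosome 22, 35380361 to 35394214, GRCh38). It stood at 1.31, 0.73, 0.187 and 0.541 CPM in control replicates 1 to 4 and at 62.1, 50.97, 53.8 and 14.3 CPM in the combined model. Replicate 4 was the lowest of the treated libraries and still above all controls, and the log2 change was 5.97 ± 0.51 (SE, adjusted p = 5.09e-09), 62.6-fold. SLC7A11, the cystine importer that feeds glutathione synthesis, went from 9.80, 5.84, 11.6 and 9.95 CPM to 234, 271, 228 and 417 CPM, with replicate 4 the highest here (log2 change 4.95 ± 0.24, adjusted p = 1.02e-12).

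Other NRF2 targets rose with them. NQO1, a quinone reductase, had 17.3, 22.3, 17.2 and 12.9 CPM in the controls and 196, 239, 304 and 315 CPM in the combined model, a log2 change of 3.94 ± 0.17 (adjusted p = 3.71e-13). GCLM, a subunit of the enzyme that starts glutathione synthesis, rose by 3.02 ± 0.14, SRXN1, which repairs oxidised peroxiredoxins, by 2.10 ± 0.10, the ferritin heavy chain gene FTH1 by 1.64 ± 0.10 and thioredoxin reductase gene TXNRD1 by 1.63 ± 0.07. NFE2L2, which encodes NRF2, rose less, by 0.63 ± 0.10 (adjusted p = 3.51e-05). The targets that did not pass included EPHX1 at -0.25, TXN at 0.25 and ABCC1 at 0.31 on the log2 scale. Against wild-type cells given 6-OHDA, 2 of the 18 were higher and 5 lower in the combined model, SLC7A11 being higher by 0.88 ± 0.19 (adjusted p = 0.00164) and HMOX1 lower by 0.96 ± 0.31 (adjusted p = 0.023).

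**Figure D2:**
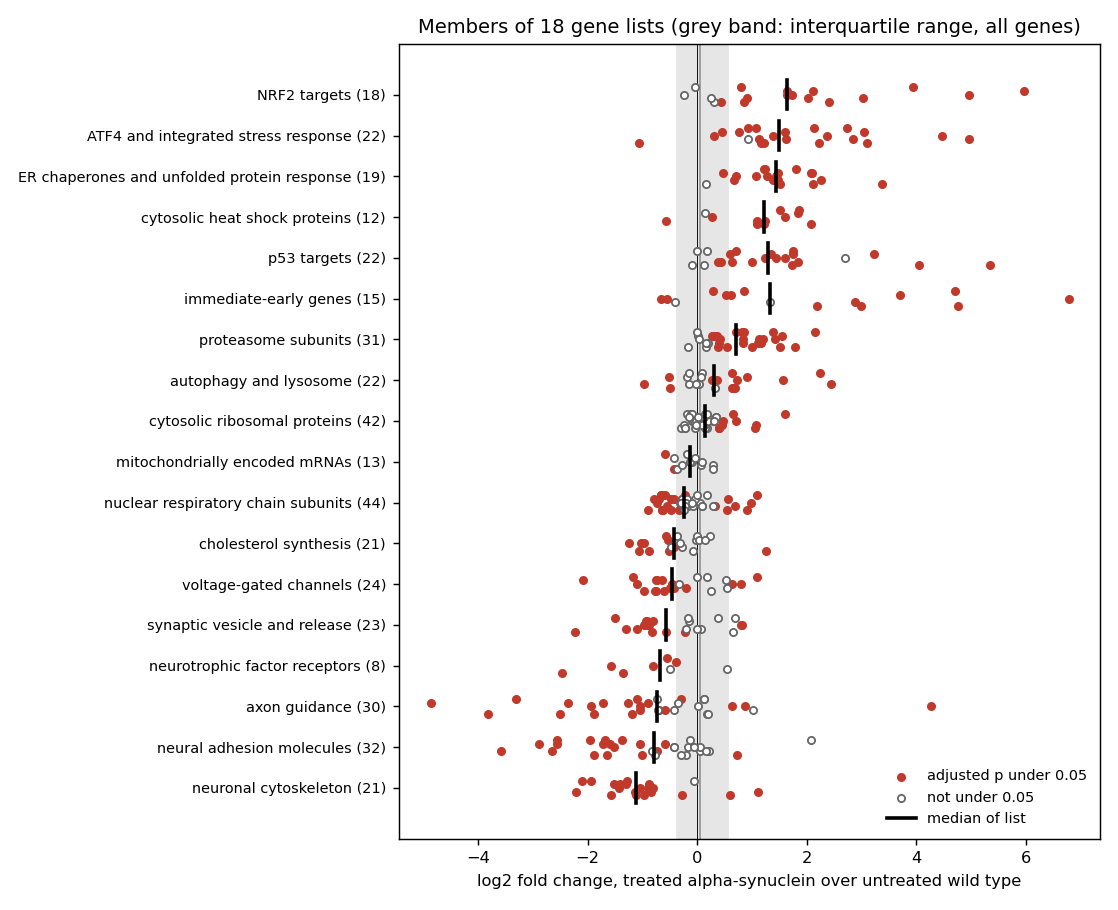
Log2 fold change of the combined model over untreated wild type for the tested members of 18 gene lists, 1 point per gene, filled where the adjusted p was under 0.05, with a bar at each list's median and a grey band over the interquartile range of all genes tested. Stress-response lists such as the NRF2 targets (median 1.64) lie to the right of the band and the neuronal cytoskeleton (median -1.11) to its left.

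Genes of the integrated stress response were higher too. Of 22 tested ATF4-linked genes, 20 were higher and 1 lower, with a median of 1.49, and these counts were the same without replicate 4. ATF4 mRNA rose by 0.77 ± 0.06, from 427, 527, 478 and 456 CPM to 803, 805, 791 and 817 CPM. DDIT3, which encodes the stress factor CHOP, moved from 15.2, 13.9, 14.6 and 16.5 CPM to 105, 110, 113 and 109 CPM, with all 4 treated libraries close together and far above the controls (log2 change 2.85 ± 0.08, adjusted p = 7.71e-17). ATF3, a further stress-induced factor, went from 1.63, 0.547, 1.31 and 1.08 CPM to 30.9, 30.1, 35.5 and 10.1 CPM, replicate 4 again the lowest of the treated libraries (4.47 ± 0.38, adjusted p = 4.01e-09). CHAC1, which degrades glutathione, rose by 3.09 ± 0.42, and TRIB3, an inhibitory pseudokinase induced by CHOP, by 2.74 ± 0.22. Enzymes of amino acid and folate metabolism rose too, asparagine synthetase ASNS by 1.14 ± 0.10 and mitochondrial MTHFD2 by 1.60 ± 0.14. The lipoprotein receptor VLDLR was the 1 member that fell, by 1.06 ± 0.17 (adjusted p = 2.41e-05), and PSAT1 of serine synthesis, at 0.92, did not pass.

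ATF4 and its partners bind a composite element of C/EBP and ATF sequences. The letters TGATGNAA, read on both strands, were searched in RefSeq promoter windows from 250 bases before to 50 after each start (GRCh38.p14). Of the 20 ATF4-linked genes that rose, 16 had a window and 4 of those (25%) held a match, ASNS, CHAC1, ATF3 and SLC3A2, against 4.46% of 27305 genes. The matches of ASNS and CHAC1 are shown because both genes rose and the match lies before the start; each is written 5′ to 3′ along the gene's own strand with the matching letters in capitals. The ASNS stretch is chr7:97872409-97872518 on the minus strand, and the CHAC1 stretch, whose match reads on the opposite strand, is chr15:40953221-40953320 on the plus strand.
ASNS: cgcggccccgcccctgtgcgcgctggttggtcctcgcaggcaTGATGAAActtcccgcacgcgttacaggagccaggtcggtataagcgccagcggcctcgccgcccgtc
CHAC1: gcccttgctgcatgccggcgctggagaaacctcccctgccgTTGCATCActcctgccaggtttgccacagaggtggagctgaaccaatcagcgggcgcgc
The ASNS match runs from 68 to 61 bases before the start and the CHAC1 match from 209 to 202. A match is a description of the letters and shows no binding. The list was chosen as ATF4-linked genes, and 20 of its 22 tested members rose. The match counts therefore do not test a link between the letters and the rise.

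Genes of protein folding in the endoplasmic reticulum rose almost as a block. Of 19 tested, 18 were higher and 0 lower (median 1.44), or 17 and 0 without replicate 4, and ATF6 at 0.16 did not pass. XBP1, whose spliced mRNA encodes a main factor of the unfolded protein response, went from 140, 167, 152 and 149 CPM to 414, 387, 396 and 496 CPM, with no overlap (log2 change 1.48 ± 0.08, adjusted p = 2.70e-12). HERPUD1, a part of the machinery that removes misfolded proteins, rose by 2.07 ± 0.11, HSP90B1, the chaperone GRP94, by 1.80 ± 0.24 and the disulphide isomerase gene PDIA6 by 1.24 ± 0.18. The lectin chaperone genes calnexin (CANX) and calreticulin (CALR) rose less, by 0.71 ± 0.17 and 0.67 ± 0.14. DNAJB9, an XBP1-induced co-chaperone, was higher by 2.11 ± 0.38, and EDEM1, which marks glycoproteins for removal, by 1.44 ± 0.14. CRELD2 passed at 0.47 ± 0.15 (adjusted p = 0.017) but not without replicate 4, where it was at 0.23.

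The endoplasmic reticulum stress element, spelled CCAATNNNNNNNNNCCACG and read on both strands, was searched in the same promoter windows. It was found in 6 of the 17 risen genes with a window (35.3%), HSP90B1, CALR, CANX, PDIA6, XBP1 and CRELD2, and in 25 of 27305 genes (0.0916%). Stretches of 4 of these promoters are given, because these risen genes carry the element, with its letters in capitals along each gene's own strand. They are chr22:28800570-28800679 (minus) for XBP1, chr12:103930200-103930349 (plus) for HSP90B1, chr22:49918504-49918613 (plus) for CRELD2 and chr5:179698739-179698848 (plus) for CANX.
XBP1: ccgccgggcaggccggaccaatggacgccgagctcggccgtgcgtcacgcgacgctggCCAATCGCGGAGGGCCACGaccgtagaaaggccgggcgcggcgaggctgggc
HSP90B1: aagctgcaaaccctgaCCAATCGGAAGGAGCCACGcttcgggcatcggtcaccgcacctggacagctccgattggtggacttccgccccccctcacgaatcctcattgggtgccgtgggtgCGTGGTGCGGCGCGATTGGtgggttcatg
CRELD2: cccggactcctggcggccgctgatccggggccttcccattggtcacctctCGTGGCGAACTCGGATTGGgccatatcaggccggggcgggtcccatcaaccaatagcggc
CANX: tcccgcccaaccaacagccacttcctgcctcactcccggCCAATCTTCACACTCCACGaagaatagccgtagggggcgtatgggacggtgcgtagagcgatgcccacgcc
HSP90B1 holds the element 2 times, in opposite orientation, XBP1 and CANX hold it as spelled, and CRELD2 holds its reverse complement. Beside these sequences, the mRNAs differed in size of change, from 1.80 for HSP90B1 to 0.47 for CRELD2 on the log2 scale. The list was chosen as genes of this response, and 18 of its 19 tested members rose. The match counts therefore do not test a link between the element and the rise. All genes with a window were counted for comparison, tested or not.

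Cytosolic protein quality control rose as well. Of 12 tested cytosolic heat shock genes, 10 were higher and 1 lower, and of 31 proteasome subunits, 24 were higher and 0 lower (medians 1.22 and 0.71). HSP90AB1, a constitutive HSP90, went from 78.1, 72.8, 69.9 and 83.6 CPM to 365, 312, 281 and 151 CPM, with replicate 4 nearest to the controls (log2 change 1.85 ± 0.17, adjusted p = 1.70e-08). PSMD14, the deubiquitinase of the proteasome lid, rose by 2.14 ± 0.25. HSPA4L, a nucleotide exchange factor, was the 1 heat shock gene to fall, by 0.57 ± 0.17 (adjusted p = 0.00885), a call lost under total-count scaling. Among 22 autophagy and lysosome genes, 11 were higher and 3 lower, against 21.8% and 23.1% over all genes. SQSTM1, the cargo receptor p62, had 109, 96.7, 104 and 114.7 CPM in the controls and 672, 596, 606 and 427 CPM in the combined model (2.43 ± 0.10, adjusted p = 3.38e-13). GABARAPL1, an ATG8 homologue, rose by 2.25 ± 0.15 and the lysosomal protease gene CTSD by 1.57 ± 0.19, whereas the protease gene CTSB fell by 0.97 ± 0.11. The other lower members were GABARAP at -0.52 and OPTN at -0.49.

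Of 22 p53 targets, 17 were higher and 0 lower (median 1.29). GDF15, a secreted stress cytokine, was at 0.98, 0.547, 0.56 and 0.865 CPM in the controls and at 30.6, 33.02, 42.1 and 22.2 CPM in the combined model (log2 change 5.34 ± 0.29, adjusted p = 6.37e-12). CDKN1A, the cell cycle inhibitor p21, went from 16.2, 16.4, 9.15 and 13.4 CPM to 278, 275, 250.5 and 113.5 CPM, with replicate 4 lower than the other 3 but well above every control (4.04 ± 0.23, adjusted p = 1.45e-11). PMAIP1 and BBC3, which encode the pro-apoptotic BH3 proteins NOXA and PUMA, rose by 3.23 ± 0.21 and 1.61 ± 0.14, and the effector gene BAX by 1.00 ± 0.10. Over the BCL2 family as a whole, 6 of 15 were higher and 4 lower (7 and 5 without replicate 4), against 21.8% and 23.1% over all genes. The libraries did not overlap in 6 higher and 1 lower of the 15, against 17.5% and 19.3% of all genes.

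Early response genes rose from very low control levels, 11 of 15 being higher and 2 lower (median 1.33). FOSB, an AP-1 subunit, had 1.14, 1.46, 2.43 and 0.541 CPM in the controls and 33.9, 45.9, 47.0 and 13.8 CPM in the combined model (log2 change 4.70 ± 0.37, adjusted p = 1.23e-09). FOS rose by 3.71 ± 0.35. EGR3 had no count in any control library and 33 counts in the combined model, at least 9.40-fold higher when the controls are set at the floor of 3 counts over the group. Replicate 4 held 1 of these counts, and without it the bound was 21.4-fold. KLF4, with 2 control libraries also at 0, had 6.10 to 7.99 CPM in replicates 1 to 3 of the combined model and 1.87 CPM in replicate 4. MYC went down, by 0.66 ± 0.17 (adjusted p = 0.00353), a call lost under total-count scaling, and IER2 fell by 0.55. Feedback inhibitors of the MAP kinase pathway were mixed, 2 of 11 higher and 4 lower, against 21.8% and 23.1% over all genes. SPRY4 went from 86.4, 107, 110 and 97.7 CPM to 19.1, 14.0, 10.6 and 4.88 CPM (-3.15 ± 0.28, adjusted p = 7.27e-09). The ERK phosphatase gene DUSP6 fell by 2.77 ± 0.33 (by 3.44 without combined-model replicate 1), while DUSP4 and DUSP10 were the higher ones, at 0.97 and 1.44. The call of DUSP10 was lost without control replicate 1 (adjusted p = 0.0501), control replicate 3 (0.0546) or combined-model replicate 1 (0.0871).

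CEBPB, a bZIP factor of stress and inflammation that the study's design text links to its quercetin arm, was also raised. It had 2.12, 3.47, 3.36 and 2.49 CPM in the controls and 50.5, 58.5, 54.5 and 45.0 CPM in the combined model, so that the lowest treated library exceeded the highest control (log2 change 4.20 ± 0.18, adjusted p = 3.13e-13). In treated wild-type cells it was higher still, at 109 CPM ± 16.1, and the combined model lay below them by 1.07 ± 0.13 (adjusted p = 2.16e-05). CEBPG rose by 1.73 ± 0.35 and the other 2 tested members of the family did not pass. AKR1C3, an aldo-keto reductase that metabolises prostaglandins and steroids, was scarcely detected, at 0.327, 0.547, 1.495 and 0.649 CPM and at 0.831, 1.08, 1.88 and 1.19 CPM, with overlapping libraries (0.72 ± 0.49, adjusted p = 0.239). Its paralogue AKR1C2 passed at 0.74 ± 0.23 (adjusted p = 0.0112); the sequences of these genes are nearly alike, so their estimated counts may share reads. IRF1, an interferon pathway factor, rose by 3.19 ± 0.30, the metallothionein gene MT1X by 3.68 ± 0.33 and the transferrin receptor gene TFRC by 2.40 ± 0.25.

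**Figure D3:**
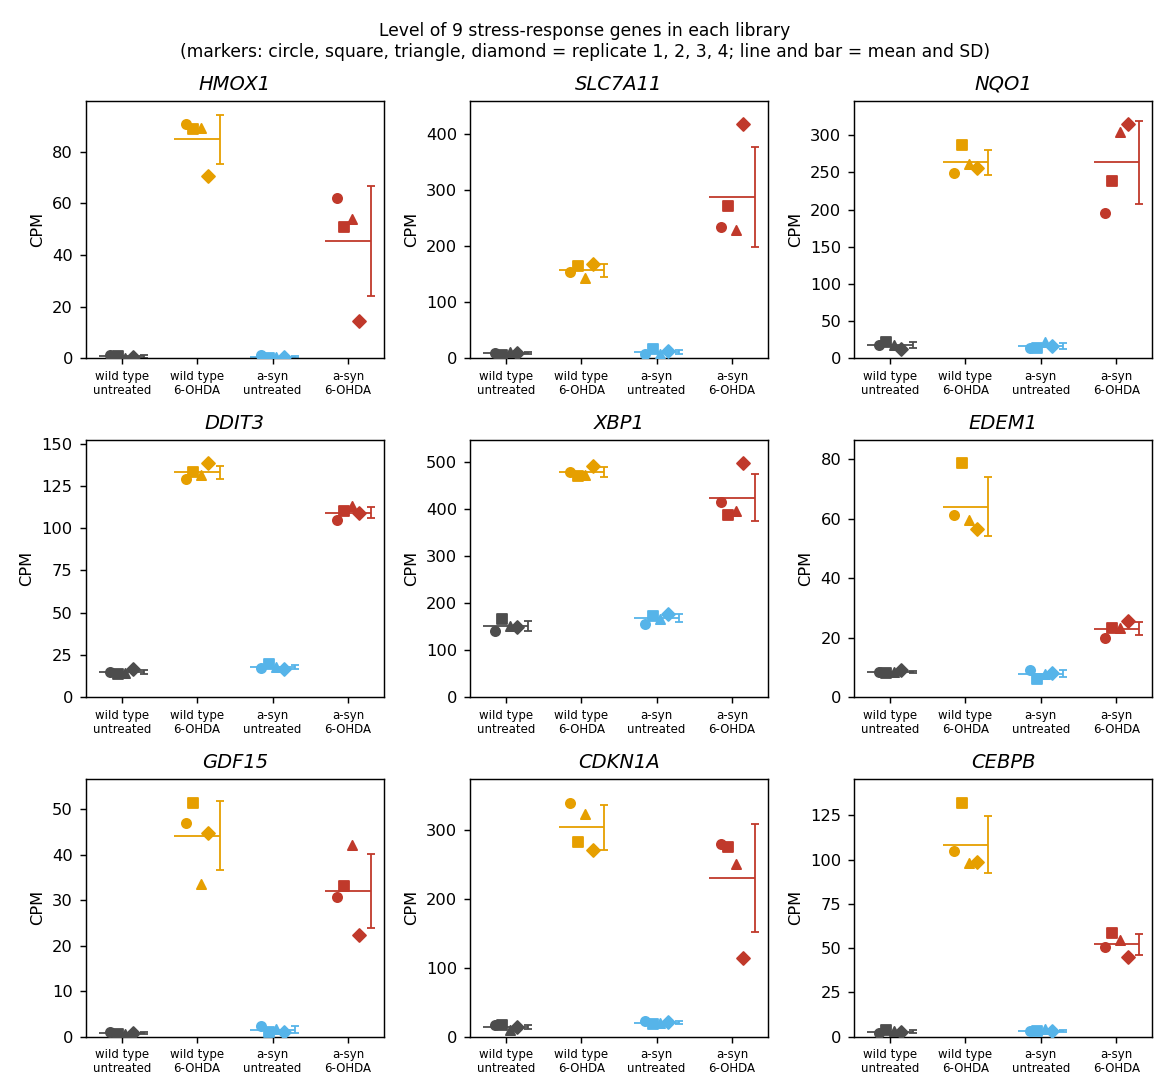
Level in CPM of 9 stress-response genes in each library of the 4 groups, with marker shapes for the replicate number and a line and bar for the mean and SD (n = 4). DDIT3 lies at 105 to 113 CPM in all 4 combined-model libraries, while HMOX1 and CDKN1A in replicate 4 lie below the other 3, and EDEM1 and CEBPB lie between the controls and treated wild type.

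Of 12 tested genes of dopamine synthesis, storage and breakdown, 3 were higher and 3 lower (25% each way), near the 21.8% and 23.1% over all genes, so the list as a whole did not stand out in count. TH, tyrosine hydroxylase, the rate-limiting enzyme of dopamine synthesis, had 377, 401, 354 and 363 CPM in the controls and 83.9, 71.8, 46.8 and 66.6 CPM in the combined model. All treated libraries lay far below the controls, with a log2 change of -2.47 ± 0.15 (adjusted p = 2.82e-11). GCH1, which makes the cofactor of TH, rose by 2.28 ± 0.44 (adjusted p = 0.000214). DDC, which turns L-DOPA into dopamine, was near the detection floor, at 0.73 to 1.95 CPM against 0 to 0.852 CPM, and its call at -1.53 ± 0.52 (adjusted p = 0.0208) was lost without control replicate 4 (adjusted p = 0.0672) or combined-model replicate 1 (adjusted p = 0.0553). Without combined-model replicate 4, the change in DDC was -2.63 ± 0.70 (adjusted p = 0.0039). SLC6A3, the dopamine transporter through which 6-OHDA enters, was low in both groups, at 6.86, 8.76, 8.22 and 8.32 CPM and at 5.15, 4.31, 8.93 and 6.92 CPM, and the change of -0.32 ± 0.24 did not pass (adjusted p = 0.301). The vesicular transporter gene SLC18A2 was at 1.09 to 2.60 CPM and 1.33 to 2.15 CPM, with a log2 change of 0.00 ± 0.33. The autoreceptor gene DRD2 fell by 0.57 ± 0.12.

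Among 6 tested midbrain transcription factors, 4 were lower and 1 higher, against 23.1% and 21.8% over all genes. OTX2 fell by 1.00 ± 0.14 and EN1 by 0.60 ± 0.11, while NR4A2, the orphan receptor NURR1, which is also an early response gene, rose by 0.99 ± 0.17. Receptors for neurotrophic factors were lower in 6 of 8 and higher in 0, or lower in 4 and higher in 1 under total-count scaling. Without combined-model replicate 4, 5 were lower and 1 higher. The libraries did not overlap, in the lower direction, in 2 of the 8, against 19.3% of all genes. RET, the signalling receptor for GDNF, had 93.9, 156, 117 and 110.4 CPM in the controls and 28.1, 14.4, 22.1 and 20.0 CPM in the combined model (-2.47 ± 0.21, adjusted p = 4.65e-09). GFRA1, the co-receptor that binds GDNF, fell by 1.36 ± 0.12, and NGFR, the p75 neurotrophin receptor, by 1.56 ± 0.38 (by 2.37 without combined-model replicate 1). The NGFR libraries overlapped, with control replicate 4 at 5.946 CPM and combined-model replicate 1 at 7.145 CPM.

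Genes of neuronal form were lower as groups, against 23.1% of all genes lower. Of 21 tested cytoskeleton genes, 18 were lower and 2 higher (median -1.11), of 30 genes of axon guidance, 17 and 3 (median -0.73), and of 32 neural adhesion genes, 17 and 1 (median -0.80). NCAM1, the neural cell adhesion molecule, went from 3094, 2885, 3277 and 3161 CPM to 798, 951, 707 and 1497 CPM, with replicate 4 the highest of the treated libraries and still below the controls (log2 change -1.65 ± 0.15, adjusted p = 1.22e-08). Its relative NCAM2 went from 26.1, 21.3, 30.4 and 26.9 CPM to 1.66, 2.15, 1.18 and 2.95 CPM (-3.58 ± 0.28, adjusted p = 1.13e-09), and NRCAM fell by 1.68 ± 0.15. DCX, a microtubule protein of young neurons, went from 2979, 2797, 3281 and 3147 CPM to 949, 1075, 917 and 1619 CPM (-1.42 ± 0.13). Dendritic MAP2 fell by 1.52 ± 0.10, MAPT, which encodes tau, by 1.58 ± 0.15, the growth cone gene GAP43 by 1.11 ± 0.12 and STMN2 by 0.84 ± 0.12. The cytoskeleton genes that rose were NEFH, the heavy neurofilament chain, by 1.12 ± 0.09, and the neuronal tubulin gene TUBB3, by 0.59 ± 0.10.

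The guidance genes held some of the largest changes in both directions. PLXNA4, a receptor for class 3 semaphorins, went from 51.8, 73.9, 76.2 and 70.9 CPM to 2.99, 1.08, 0.705 and 3.01 CPM (log2 change -4.86 ± 0.28, adjusted p = 1.62e-11). PLXNA4 was at the floor of 3 counts in combined-model replicates 2 and 3, so the size of its fall is uncertain. The secreted ligand gene SEMA3D fell by 3.82 ± 0.19. Netrin receptors split: DCC, which mediates attraction, fell by 2.50 ± 0.19 and the repulsive receptor gene UNC5D by 3.30 ± 0.20, whereas UNC5B, a repulsive and pro-apoptotic dependence receptor that p53 is known to induce, went from 7.35, 7.30, 7.29 and 5.41 CPM to 88.9 to 200.3 CPM. All treated libraries of UNC5B were far above the controls, replicate 4 was the highest, and the log2 change was 4.26 ± 0.23 (adjusted p = 5.26e-12), or 3.93 without replicate 4. EPHB1 and EFNB2 also rose, by 0.87 and 0.63.

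Lists of synaptic and excitability genes had medians nearer to 0. Of 23 synaptic vesicle and release genes, 13 were lower and 2 higher (median -0.56), of 24 voltage-gated channel genes, 15 and 3 (median -0.46), and of 16 kinesin and dynein motors, 9 and 2 (median -0.38). Under total-count scaling these lists had 11 lower and 3 higher, 12 and 6, and 7 and 4. Of 20 glutamate and GABA receptor genes, 8 were lower and 2 higher but the median was 0.00, or 7 lower and 4 higher with a median of 0.27 under total-count scaling, so this list did not move one way. SLC17A6, the vesicular glutamate transporter VGLUT2, went from 472, 407, 475 and 469 CPM to 136, 145, 93.8 and 258 CPM (log2 change -1.51 ± 0.19, adjusted p = 1.40e-06). The calcium sensor gene SYT4 fell by 2.24 ± 0.28, the sodium channel gene SCN9A by 2.08 ± 0.18, the AMPA receptor subunit gene GRIA2 by 1.76 ± 0.14 and the kinesin gene KIF21B by 3.15 ± 0.18. VAMP2, a core fusion protein, was one of the 2 release genes that rose, by 0.82 ± 0.16. PENK, the enkephalin precursor, showed one of the largest falls, from 52.3, 40.7, 60.5 and 50.1 CPM to 1.495, 1.44, 0.94 and 0.908 CPM (-5.50 ± 0.32, adjusted p = 1.44e-11). In the list of 15 granule and neuropeptide genes that includes PENK, 6 were higher and 5 lower. PTPRN, a granule membrane protein, rose by 1.98 ± 0.20 and the granule chaperone gene SCG5 fell by 3.38 ± 0.55 (by 4.04 without combined-model replicate 1). SCG5 was near the floor in the combined model, at 0 to 0.997 CPM, so the size of its fall is uncertain.

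**Figure D4:**
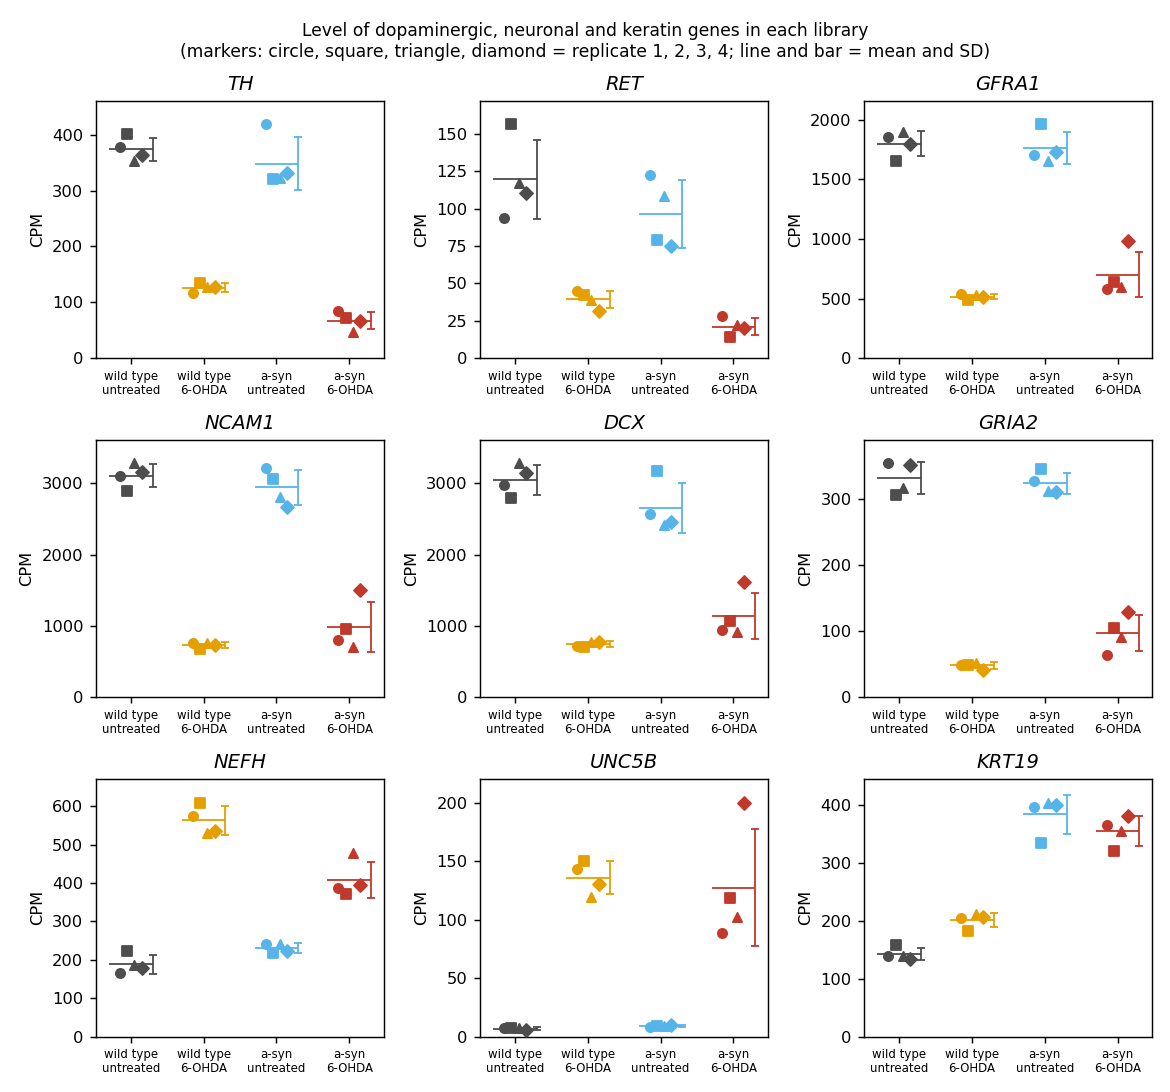
Level in CPM of 9 dopaminergic, neuronal and keratin genes in each library of the 4 groups, with marker shapes for the replicate number and a line and bar for the mean and SD (n = 4). TH and RET are lowest in the combined model, NCAM1 and DCX are lower in both treated groups with replicate 4 of the combined model the highest treated library, and KRT19 is high in both alpha-synuclein groups.

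Mitochondrially encoded mRNAs differed little between the combined model and the controls. Of 13, 0 were higher and 2 lower, with a median of -0.13, and their share of counts was 0.990% ± 0.128 against 0.950% ± 0.070 (SD, n = 4 each; exact permutation test, two-sided, p = 0.629). MT-CO3, a subunit of complex IV, went from 1243, 1311, 1245 and 1417 CPM to 793, 807, 730.1 and 1134 CPM, with all treated libraries below the controls (log2 change -0.59 ± 0.18, adjusted p = 0.00941). MT-CYB of complex III fell by 0.43 ± 0.14 (adjusted p = 0.0162; 0.0728 without combined-model replicate 3). Neither call held under total-count scaling (adjusted p = 0.103 and 0.349). In wild-type cells given 6-OHDA the median of the 13 over untreated wild type was -1.18. Against those cells all 13 were higher in the combined model (median 1.12), or 11 without replicate 4, where 14.4% of all genes tested were higher. MT-ND4L of complex I, at 28.6, 20.2, 25.8 and 35.03 CPM in the controls, 44.7, 32.7, 18.1 and 37.8 CPM in the combined model and 8.59, 4.84, 6.51 and 6.96 CPM in treated wild-type cells, differed most (2.24 ± 0.30, adjusted p = 5.10e-05). Library depth moved with this comparison too: 3 of the 4 treated wild-type libraries held 1866396 to 3115158 counts, and its part was not tested.

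**Figure D5:**
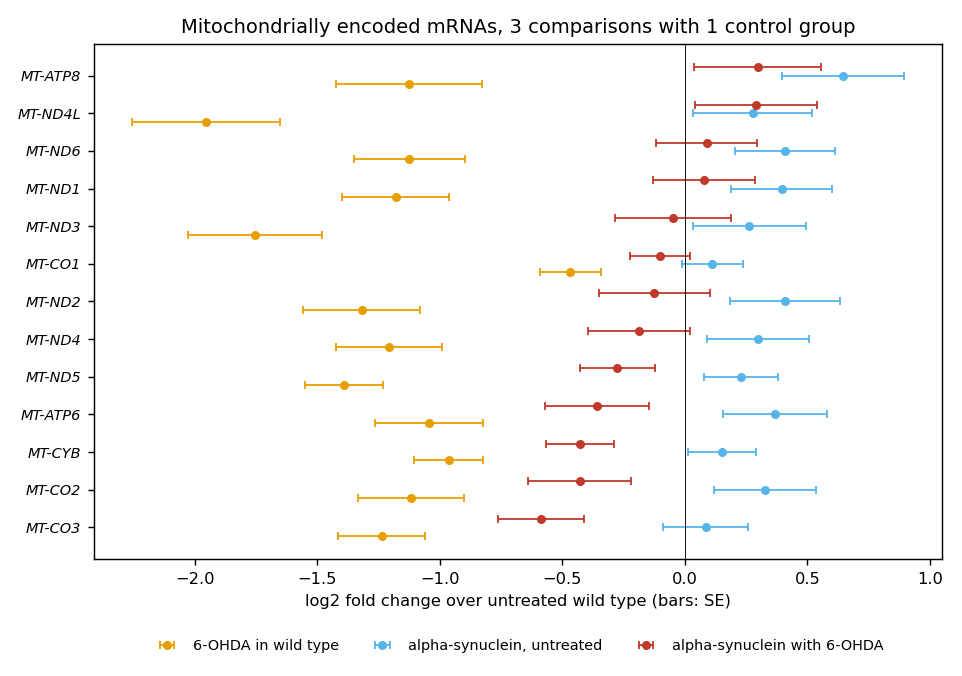
Log2 fold change with its SE for the 13 mitochondrially encoded mRNAs in 3 groups, each over the same untreated wild-type libraries. The combined model lies near 0, between -0.59 and 0.30, and treated wild type at -0.47 or lower for every gene.

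Nuclear genes of energy metabolism showed modest and mixed changes. Of 44 nuclear subunits of the respiratory chain, 20 were lower and 7 higher (median -0.24), and under total-count scaling 13 and 9, with the median turning to 0.03. Over all 16601 genes, 3835 were lower and 3613 higher, and under total-count scaling 2280 and 6250. COX5B of complex IV fell by 0.90 ± 0.14 and NDUFA4 rose by 1.09 ± 0.19. Of 21 cholesterol synthesis genes, 10 were lower and 1 higher (median -0.42), or 6 and 3 under total-count scaling (median -0.14). HMGCS1, which makes HMG-CoA, fell by 1.02 ± 0.16 and DHCR7, the last step to cholesterol, by 1.24 ± 0.09, while INSIG1, which retains the sterol sensor in the endoplasmic reticulum, rose by 1.25 ± 0.25. Glycolysis and hypoxia genes split evenly, with 10 higher and 10 lower of 26 (12 and 4 under total-count scaling). LDHA, lactate dehydrogenase, fell by 0.96 ± 0.11, and EGLN3, a prolyl hydroxylase induced by HIF, went from 2.12, 1.82, 1.121 and 1.41 CPM to 23.6, 23.7, 28.7 and 12.3 CPM (log2 change 3.73 ± 0.28, adjusted p = 6.30e-10). Of 42 cytosolic ribosomal protein genes, 11 were higher and 0 lower, or 30 and 0 under total-count scaling. Many of these genes have processed pseudogene copies, so their counts are uncertain.

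Among the familial Parkinson genes, FBXO7 and the ubiquitin hydrolase gene UCHL1 were higher, by 0.58 and 0.26, and PLA2G6, ATP13A2 and VPS35 were lower, by 0.64, 0.52 and 0.39 on the log2 scale. Among the largest falls was that of EOMES, a T-box factor of neuronal precursors, from 12.7, 27.4, 23.5 and 23.0 CPM to 0.332, 1.08, 0.705 and 0.284 CPM (log2 change -5.56 ± 0.35, adjusted p = 4.75e-11). EOMES was at or below the floor of 3 counts in replicates 1 to 3 of the combined model, so the size of its fall is uncertain. LMO3, a LIM-domain cofactor, fell by 3.77 ± 0.33 and CCND1, cyclin D1, by 2.22 ± 0.22. DIO3, which inactivates thyroid hormone, had 2 counts over the 4 control libraries and 117 over the combined model, a ratio of 50 with an exact 95% counting interval of 13.5 to 418. Replicate 4 of the combined model held 33 of these 117 counts at the greatest depth, and without it the ratio was 84.3 (22.6 to 707). FAM114A1 rose by 4.85 ± 0.46, or by 5.83 without control replicate 1.

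Setting the combined model against treated wild-type cells asks what alpha-synuclein adds under 6-OHDA. A smaller part of the transcriptome differed, 4537 genes (27.3%), 2395 higher (14.4%) and 2142 lower (12.9%), and 484 (2.92%) at least 2-fold. Without replicate 4 of the combined model the balance turned, to 1887 higher and 2170 lower, whereas leaving out any other library of these groups left more higher than lower. Type I keratin genes were higher in 4 of 8 and lower in 0. KRT19, a simple-epithelial keratin, had 139, 158, 139 and 134 CPM in untreated wild type, 205, 183, 212 and 205 CPM in treated wild type and 365, 319, 355 and 380 CPM in the combined model, which lay above both (0.82 ± 0.08 over treated wild type, adjusted p = 1.82e-06). KRT40 was higher by 1.33 ± 0.13. These keratins were at the level of untreated alpha-synuclein cells, where KRT19 averaged 383 CPM ± 33.3.

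Splicing factors were higher than in treated wild type in 16 of 22 and lower in 2, while 4 were higher and 8 lower against untreated wild type (9 and 6 under total-count scaling). SRSF1, an SR protein, differed by 0.64 ± 0.14 from treated wild type (adjusted p = 0.00135) and by -0.14 ± 0.13 from untreated wild type (adjusted p = 0.397). HNRNPK was higher by 0.47 ± 0.10 than in treated wild type. Several stress and p53 genes were lower instead: 8 of 22 p53 targets were lower and 3 higher (4 and 3 without replicate 4), the lower ones including BBC3 by 0.98 ± 0.13 (adjusted p = 5.16e-05). EDEM1 had 61.2, 78.6, 59.5 and 56.7 CPM in treated wild type and 20.1, 23.3, 23.3 and 25.7 CPM in the combined model, without overlap (-1.47 ± 0.13, adjusted p = 1.71e-06), and DNAJB9 was lower by 1.40 ± 0.33. TH was lower than in treated wild type by 0.90 ± 0.15 (adjusted p = 0.000209) and RET by 0.90 ± 0.22. NGFR, at 29.3, 34.5, 33.02 and 26.9 CPM in treated wild type and 7.14, 1.08, 2.58 and 1.65 CPM in the combined model, was lower by 3.30 ± 0.37 (adjusted p = 1.03e-05), or by 4.09 without combined-model replicate 1. Adhesion genes were higher in 10 of 32 and lower in 2, or 5 and 3 without replicate 4. GRIA2 was higher by 1.01 ± 0.15 and DCX by 0.61 ± 0.13.

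For a few genes the treated wild-type cells stood far from the combined model. ROCK1, a kinase that acts on the actin cytoskeleton, had 51.3, 44.0, 61.3 and 73.5 CPM in the controls, 56.5, 49.2, 53.6 and 85.5 CPM in the combined model and 6.55, 6.05, 9.30 and 4.48 CPM in treated wild type. The combined model thus overlapped the controls (log2 change 0.11 ± 0.31, adjusted p = 0.80) and lay above treated wild type by 3.24 ± 0.41 (adjusted p = 2.73e-05). FBXO45, a ubiquitin ligase subunit of axon development, had 18.9 to 28.1 CPM in the controls, 17.9 to 31.9 CPM in the combined model and 0 to 3.02 CPM in treated wild type. RHOBTB1 had 2 counts over the 4 treated wild-type libraries and 423 over the combined model, a ratio of 143 (exact 95% counting interval 39.3 to 1180). Replicate 4 held 367 of those 423 counts, and without it the ratio was 44.5 (11.8 to 376). In the opposite direction, CDKN1B, the cell cycle inhibitor p27, had no count in any untreated wild-type library. It was at least 14.8-fold higher in the combined model and at least 65.7-fold higher in treated wild type, on the floor of 3 counts over the group, and at least 17.3-fold higher in untreated alpha-synuclein cells. FAM117B, with 6.18 to 10.2 CPM in treated wild type and at most 0.284 CPM in the combined model, differed by -5.62 ± 0.81. Its only counts in the combined model lay in replicate 4; without that library the fitted change was -9.08, which rests on the prior count of the fit and gives no size of effect. GTF3C4 differed by -5.19 ± 1.31 (-6.09 without combined-model replicate 1) and the cyclin gene CCNI by -2.06 ± 0.47.

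Against untreated alpha-synuclein cells, the comparison of 6-OHDA within that genotype, 7820 genes differed (47.1%), 3799 higher (22.9%) and 4021 lower (24.2%), and 2376 (14.3%) at least 2-fold. In 3 stress lists nearly as many genes were higher there as against untreated wild type, 14 of 18 NRF2 targets, 20 of 22 ATF4-linked genes and 17 of 19 endoplasmic reticulum genes. Of the NRF2 targets 2 were lower there, against 0, and 14 of 22 p53 targets were higher, against 17. The comparisons share the combined-model libraries, so these counts are not independent. HMOX1 was higher by 6.33 ± 0.47, TH lower by 2.37 ± 0.15, and PENK lower by 4.95 ± 0.32. Type I keratin genes had a median of -0.03 there, and KRT19 differed by -0.11 ± 0.07 (adjusted p = 0.247).

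Whether both stressors together gave the sum of their separate log2 changes was tested as a departure from that sum, which is the interaction term of the fit. In 3594 genes (21.6%) it passed, 1854 above the sum (11.2%) and 1740 below it (10.5%), and 713 (4.29%) departed at least 2-fold. Without replicate 4 of the combined model, 1564 lay above and 1969 below. Genes that rose with 6-OHDA in wild type and lay below the sum included EDEM1 at -1.35 ± 0.20 (adjusted p = 0.000297), DNAJB9 at -2.22 ± 0.50, CEBPB at -1.34 ± 0.25 (adjusted p = 0.0011), BBC3 at -1.18 ± 0.19, ATF3 at -1.99 ± 0.52 and SQSTM1 at -0.77 ± 0.14. NGFR, at -2.76 ± 0.50, rose with 6-OHDA in wild type and fell in the combined model. Neuronal genes that fell with 6-OHDA in wild type lay above the sum in several cases, DCX by 0.81 ± 0.18, MAP2 by 0.74 ± 0.13, GRIA2 by 1.05 ± 0.20, NCAM2 by 2.26 ± 0.51 and UNC5D by 1.55 ± 0.30. In treated wild type NCAM2 was near the floor, at 0.452, 0.303, 1.86 and 0.497 CPM. A count of 3 equals 0.226 to 1.49 CPM in those libraries, so the size of its departure is uncertain. TH departed downward, by 0.80 ± 0.20 (adjusted p = 0.00729): 6-OHDA alone changed it by -1.57, overexpression alone by -0.10, and both together by -2.47. Splicing factors departed upward in 13 of 22 and downward in 2, and p53 targets upward in 2 and downward in 7 of 22. In the other stress and neuronal lists most members did not depart: 1 of 18 NRF2 targets lay above and 3 below, of 22 ATF4-linked genes 1 and 6, of 19 endoplasmic reticulum genes 0 and 4, of 21 cytoskeleton genes 6 and 3, and of 23 synaptic genes 5 and 1. Without replicate 4 the cytoskeleton and synaptic counts were even, at 4 and 4 and at 2 and 2. Without it, 1 of the 22 ATF4-linked genes lay above the sum and 8 below, and of the 19 endoplasmic reticulum genes 0 and 8 (median -0.43). Over all genes the number below also rose, from 1740 to 1969. The other stress lists did not move this way. NRF2 targets stayed at 1 and 3, p53 targets at 2 and 7 and early response genes at 0 and 4. Of 12 cytosolic heat shock genes 3 lay above and 1 below, where 1 and 1 did with all libraries.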

How the data were processed

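Polyadenylated RNA of LUHMES cells was isolated and sequenced by the submitters. Reads were trimmed with Trimmomatic 0.38 and quantified with kallisto 0.46.2 against GRCh38, per the submitters' processing notes. The table deposited by the authors holds estimated counts per gene, given as whole numbers, for 34679 genes, and 29867 had a count in some library. Counts of duplicated sequences (paralogues, pseudogenes) are split by estimation, and whether strand was used was not given in the sources used here.

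Groups followed the labels. Genes passing edgeR's filterByExpr (minimum count 10) were kept, 16601 in all, which set aside 0.174% of counts. Library sizes were scaled by TMM, and edgeR 4.0.16 (R 4.3.3) fitted 1 mean per group over all 22 libraries, with quasi-likelihood tests and Benjamini-Hochberg adjustment over all genes tested; a call is an adjusted p under 0.05. CPM use the TMM-scaled sizes. Errors of log2 changes are SE derived from the test, the absolute log2 change over the square root of the quasi-likelihood F. They and the log2 changes themselves are approximate for genes near the floor in either group. Other errors are SD. Shares of counts were compared by exact permutation, two-sided. A count of 3, the floor for a library at 0, equals 0.324 to 0.561 CPM in the controls and 0.170 to 1.08 CPM in the combined model; floors and counting intervals cover counting error only. On simulated counts for the combined comparison (16601 genes), 72 of 100 genes changed by 1 on the log2 scale and 87 of 100 changed by 2 were recovered, with 7 false calls among 166. In that simulation no other genes were changed, the changes were even up and down, and no library was set apart. Its rates therefore need not hold for the real comparison, where 44.9% of genes were called.

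Gene names and positions came from GENCODE 29 (99.9% of IDs matched), promoters from RefSeq windows on GRCh38.p14. A motif search for the NRF2 targets was void, since under 80% had a window. Alternatives were RLE and TMMwsp scaling, total counts alone (chosen after seeing the data), no low-count filter, only the groups compared, DESeq2 1.42.0, a replicate block, and each library left out in turn. Replicate numbers did not pair the samples.

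Gene lists and the rule for named genes were chosen with earlier results of these data known. The rule named CEBPB, AKR1C3 and TH among genes fixed by name, the 12 largest non-overlapping changes each way among protein-coding genes at 5 CPM or more, from each list the 4 called members lowest in adjusted p, and the 8 largest each way against treated wild type and in the departure. Some genes that the rule or lists hold are not reported here. Further genes were chosen after their values were seen: SRXN1, ATF4, CHAC1, TRIB3, ASNS, MTHFD2, VLDLR, HSP90B1, CRELD2, CANX, CALR, PDIA6, EDEM1, DNAJB9, HSPA4L, EGR3, MYC, TFRC, DDC, SLC18A2, SLC6A3, EN1, DCX, MAPT, NEFH, TUBB3, STMN2, GAP43, NCAM1, NRCAM, DCC, SLC17A6, SYT4, VAMP2, SCG5, MT-ND4L, NDUFA4, HMGCS1, INSIG1, LDHA and SRSF1, and so were list members given only with their log2 change.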

Additional observations from a re-analysis of the deposited data

Results flagged for a closer look

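In some groups of 4 libraries, 1 library lay far from the others, judged by its gap to the nearest relative to the group's range; chance gives about 1 such group in 20. Of 228 gene and group pairs looked at, 21 met this, and in 7 of them the library was replicate 4 of the combined model. In that library CHAC1 was at 6.02 CPM (others 10.97 to 11.98), CDKN1A at 113.5 CPM (others 250.5 to 278.5), PMAIP1 at 28.7 CPM (others 55.8 to 60.9), GFRA1 at 984.5 CPM (others 582.4 to 636.7), GAP43 at 580.4 CPM (others 328.5 to 363.2), UNC5D at 20.7 CPM (others 11.0 to 12.3) and FAM117B at 0.284 CPM (others 0). In all 7 it lay on the side of the controls. FAM117B, at -2.86 on the log2 scale against the controls, is uncertain here, since a count of 3 equals 0.4985 to 1.077 CPM in replicates 1 to 3. Elsewhere in the combined model, HSPA4L stood at 16.9 CPM in replicate 1 (others 11.9 to 12.6) and UCHL1 at 1252 CPM in replicate 2 (others 1439 to 1465).

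Among the controls, replicate 2 stood apart for ASNS at 28.6 CPM (others 35.1 to 36.1), HSP90B1 at 41.2 CPM (others 51.6 to 53.4), CANX at 258.5 CPM (others 157.7 to 164.9), HSPA4L at 26.4 CPM (others 17.8 to 18.0), MYC at 26.8 CPM (others 17.2 to 18.8), SLC17A6 at 406.6 CPM (others 469.4 to 474.8), CCNI at 54.5 CPM (others 16.0 to 21.2) and CCND1 at 80.6 CPM (others 52.8 to 57.1). Replicate 4 did so for UNC5B at 5.41 CPM (others 7.29 to 7.35), UNC5D at 164.1 CPM (others 140.9 to 143.5) and GTF3C4 at 0.432 CPM (others 0), and replicate 1 for TFRC at 39.9 CPM (others 21.5 to 23.9). Control replicate 4 was also the deepest of its group, at 10609641 counts (others 6106908 to 6787772).

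The change under 6-OHDA differed between the genotypes, by the interaction term of the edgeR fit, in 48 of the genes described. Of the groups in that term only the combined model was read on lane 2, so lane and this difference cannot be told apart. Among the stress genes of these 48, those below the sum of the separate log2 changes were SRXN1 at -0.52, ATF4 at -0.26, ATF3 at -1.99, DDIT3 at -0.52, XBP1 at -0.32, EDEM1 at -1.35, DNAJB9 at -2.22, SQSTM1 at -0.77, GDF15 at -1.39, CDKN1A at -0.97, PMAIP1 at -0.90, BBC3 at -1.18, BAX at -0.54 and CEBPB at -1.34. TXNRD1 at 0.41, HSPA4L at 0.94 and CEBPG at 1.44 lay above it; CEBPG did not pass without combined-model replicate 4 (adjusted p = 0.0826). Among transcription factors and receptors, TH's regulator NR4A2 was at -0.79, MYC at -0.89, NGFR at -2.76 and GFRA1 at 0.47, and TH itself at -0.80.

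Among the neuronal genes of these 48, those above the sum were MAP2 at 0.74, DCX at 0.81, STMN2 at 0.72, NCAM2 at 2.26, NRCAM at 1.01, SEMA3D at 1.16, UNC5D at 1.55, SLC17A6 at 0.94, SCN9A at 1.01 and GRIA2 at 1.05. They do not speak for the neuronal lists, most of whose members did not depart. NCAM2 was near the floor in treated wild type, so the size of its departure is uncertain. NEFH at -0.76, UCHL1 at -0.25 and PTPRN at -0.82 lay below it, and PTPRN did not pass without combined-model replicate 4 (adjusted p = 0.0693). Among metabolic, splicing and keratin genes, MT-ND4L was at 1.97, LDHA at 0.56, HNRNPK at 0.49 and SRSF1 at 0.68, and INSIG1 was at -1.02 (adjusted p = 0.0504 without combined-model replicate 4) and KRT19 at -0.61. The largest departures among these 48 genes were ROCK1 at 3.55, FBXO45 at 5.69, RHOBTB1 at 7.04, CDKN1B at -9.54, FAM117B at -5.21, GTF3C4 at -9.35 and CCNI at -3.37. FBXO45 was at 4.45 without treated wild-type replicate 1 and 8.05 without replicate 2, and without combined-model replicate 4 RHOBTB1 was at 5.96 and FAM117B at -8.67. GTF3C4, whose only control counts lay in replicate 4, was at -12.85 without it. With groups at 0 to 3 counts, as for CDKN1B and RHOBTB1, such a value depends on the prior count of the fit and gives no size of effect.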

How the results depend on the processing

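The number of genes called in each of the 4 comparisons stayed within 1.5 times of the reported count under every alternative run. For the combined model against untreated wild type the planned settings gave 6075 (only the groups compared) to 7516 (RLE scaling), and leaving out 1 library gave 6353 to 8146. The same range was 3732 to 4367 against treated wild type, 6714 to 8520 against untreated alpha-synuclein cells and 2861 to 4298 for the departure. Replicate numbers did not pair the samples (same-number correlations of 0.0776, -0.0226, -0.0156 and -0.0125); with the replicate number as a block the 4 counts were 7335, 4208, 7681 and 3354. Total counts alone gave 8920 calls against untreated alpha-synuclein cells, 74.7% of them higher instead of 48.6%. Without the low-count filter, 64.4% of calls against treated wild type were higher instead of 52.8%. The share of counts on pseudogenes differed by 0.452 percentage points, 0.407 to 0.512 with 1 library left out, where p reached 0.0571. The share of the 10 most abundant genes differed by 0.796 points, 0.625 to 1.05, passing (exact permutation p = 0.0286) only without combined-model replicate 4. No named gene changed sign where either fit called it. GTF3C4, not called against untreated wild type, went from 0.60 to -0.31 without combined-model replicate 1. FAM117B was called against untreated wild type but not without control replicate 2 (adjusted p = 0.0556) or combined-model replicate 1 (0.0512), HSPA4L not with only the groups compared (0.0553) or without control replicate 2 (0.0503), CDKN1B against treated wild type not without combined-model replicate 1 (0.0577), and RHOBTB1, not called against untreated wild type, passed with only the groups compared (0.0434), with no low-count filter (0.0338), with the replicate block (0.02) and without combined-model replicate 4 (0.00703). Total counts alone also lost KARS (-0.05). The causes were not tested. Depth limits the genes near the floor, DDC, AKR1C3 and SLC18A2 among them.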

Other observations

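Several gene groups not described above had counts that depended on the scaling of the libraries, in the combined model against untreated wild type. Aminoacyl-tRNA synthetases, many of them known ATF4 targets, were higher in 6 of 19 and lower in 4, with a median log2 change of 0.21, or 12 and 0 (median 0.48) under total-count scaling. Genes of iron handling and ferroptosis were higher in 8 of 20 and lower in 4, and those of zinc handling and the metallothioneins in 7 of 13 and 3. NF-kappaB subunits and inhibitors were higher in 5 of 13 and lower in 1, and interferon and MHC class I genes in 2 of 15 and 0. Under total-count scaling these 4 lists had 12 higher and 3 lower, 7 and 0, 8 and 0, and 8 and 0. Over all 16601 genes tested, 21.8% were higher and 23.1% lower. Under total-count scaling 6250 of all genes were higher and 2280 lower, so lists shifted upward with the rest. Aryl hydrocarbon receptor targets, whose counts did not depend on the scaling, were higher in 2 of 5 and lower in 0. Neural progenitor and cell cycle genes were lower in 6 of 11 and higher in 2 (median -0.72), or 3 and 2 under total-count scaling (median -0.47).

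Oligodendrocyte lineage markers, of which 6 of 8 were tested, were lower in 4 and higher in 0. OLIG1, a basic helix-loop-helix factor also found in neural precursors, stood at 47.9, 62.8, 54.6 and 44.5 CPM in the controls and 5.82, 3.95, 5.17 and 15.1 CPM in the combined model, with replicate 4 nearest to the controls (-2.58 ± 0.29, edgeR adjusted p = 2.09e-07). DCLK1, a doublecortin-like kinase, fell by 2.21 ± 0.16 and the peripheral neurofilament-like gene PRPH by 1.94 ± 0.27. Both keratins KRT33A and KRT33B were higher, by 1.63 ± 0.33 and 1.13 ± 0.16, beside KRT19 and KRT40, with KRT33A at 1.04 without combined-model replicate 4.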
